A study of Homo sapiens with 13 samples.

Results

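The 10 genes described here encode 7 cyclins (CCND1, CCND3, CCNE1, CCNE2, CCNA2, CCNB1 and CCNB2) and 3 cyclin-dependent kinases (CDK1, CDK2 and CDK4). They were taken by symbol from the 22613 gene entries measured, with earlier results of these data known, and all 10 passed the filter on low values. The cells were LNCaP-abl, a human prostate cancer line derived from LNCaP that grows without androgen, between passages 53 and 60. They were kept in medium with 10% charcoal-stripped serum, which is depleted of steroids. Cells were transfected with an siRNA pool, and RNA was taken 72 h later and sequenced. The 12 knockdown libraries were labelled siBRCA1, siBRCA2 (DNA repair factors), siCTCF, siRAD21 (chromatin looping), siEED, siEZH2 (subunits of the Polycomb complex PRC2), siFOXA1, siFOXM1 (forkhead transcription factors), siKDM1A (a histone demethylase), siSMARCA4 (a chromatin remodelling ATPase), siMALAT1 and siPCAT1 (long noncoding RNAs), and the 13th library was transfected with control siRNA. Each siRNA had 1 library, so no value below carries a replicate error and no difference was tested. The libraries were made from 1 cell line with no genotype difference, and a pool of siRNAs carries the off-target effects of each siRNA in it.

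Cyclins are regulatory subunits that switch on cyclin-dependent kinases at set times of the cell cycle. D cyclins pair with CDK4 and its close relative CDK6 in G1 and start the phosphorylation of the retinoblastoma protein, which releases E2F factors. E cyclins pair with CDK2 at the start of DNA replication, cyclin A2 pairs with CDK2 in S phase and with CDK1 later, and B cyclins pair with CDK1 to drive mitosis. The mRNAs of cyclins A2, B1 and B2 and of CDK1 are known to be made mainly in S, G2 and M phases, under repressor and activator complexes built on the MuvB core, while those of D cyclins follow growth signals more than cycle position.

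Levels are given as FPKM, which is scaled to transcript length and so can be set side by side between genes. Differences are knockdown minus control on the log2(FPKM + 1) scale. A gene was counted as 2-fold lower or higher where that difference was at least 1 in size. In bulk RNA, fewer cycling cells and less mRNA in each cell cannot be told apart. All 12 differences of a gene share the 1 control library.

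Of the luminal prostate genes examined, HOXB13 was present and the kallikreins were near 0. HOXB13 lay between 77.6 and 159.9 FPKM in the knockdowns, against 121 in the control. KLK3 and KLK2, androgen-induced kallikreins, stayed at or below 0.524 and 1.70 FPKM in the knockdowns and lay at 0.0513 and 0.214 FPKM in the control. Of 13 markers of fibroblast, leukocyte, endothelial and basal cells, 5 were among the entries used, and their summed level was 2.13 to 5.15 FPKM in the knockdowns and 3.11 in the control. Of the 11 siRNA targets examined, 8 were lowest of all 13 libraries in their own library. In siBRCA2 the BRCA2 level was 1.23 FPKM, against 3.25 in the control. BRCA1 was the 3rd lowest in its own library, BRCA2 the 9th and MALAT1 the 12th, so the MALAT1 level goes against that label. PCAT1 was not analysed here.

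The promoters of 4 members that were low together, CCNA2, CCNB1, CCNB2 and CDK1, are shown beside that of CDK4, which was level. Each is the 120 bases before an annotated start, 5′ to 3′ on the gene's strand, from RefSeq on GRCh38.p14. For CDK1 it is the downstream one of 2 annotated starts, and all of the 120 bases before it lie downstream of the upstream start. Capitals mark matches to the CCAAT box (ATTGG where it lies on the other strand) and to the cell cycle genes homology region, CHR, an element bound by MuvB complexes, with its letters taken as TTTGAA, or as the variants CTTGAA or TTTAAA in these windows.
CCNA2 (chr4:121823884-121824003, minus strand): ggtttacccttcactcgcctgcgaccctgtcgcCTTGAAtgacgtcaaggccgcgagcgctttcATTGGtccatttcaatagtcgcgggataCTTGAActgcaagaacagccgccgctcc
CCNB1 (chr5:69167030-69167149, plus strand): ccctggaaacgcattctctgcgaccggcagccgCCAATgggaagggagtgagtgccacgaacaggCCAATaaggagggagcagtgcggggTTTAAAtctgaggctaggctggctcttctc
CCNB2 (chr15:59105026-59105145, plus strand): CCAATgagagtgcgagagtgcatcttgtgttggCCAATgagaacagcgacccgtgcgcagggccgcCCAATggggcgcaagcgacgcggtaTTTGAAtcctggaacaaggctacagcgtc
CDK1 (chr10:60778358-60778477, plus strand): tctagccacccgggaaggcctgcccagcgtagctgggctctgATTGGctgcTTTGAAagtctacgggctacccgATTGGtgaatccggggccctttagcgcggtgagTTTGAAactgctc
CDK4 (chr12:57752311-57752430, minus strand): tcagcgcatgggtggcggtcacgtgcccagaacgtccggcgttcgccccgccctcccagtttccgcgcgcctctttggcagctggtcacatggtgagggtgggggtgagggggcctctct
In the first 4 of these a CHR or variant match stood near the start with a CCAAT box upstream of it, and CDK4 had neither. In CCNA2 and CCNB1 that match was a variant, added after the sequences had been seen. These promoters were chosen by the levels of their genes, and the share of all windows with this arrangement was not computed. Whether the motifs bear on the levels was not tested. The motifs also stood in promoters of members that were 2-fold lower in no knockdown on the log2(FPKM + 1) scale, although CCNE1 came near in siFOXA1 (-0.88). CCNE1 had TTTAAA with its first base at -28 and no CCAAT box, and CCND3 had CCAAT boxes at -136 and -64 before separate starts and no CHR or variant match.

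**Figure D1:**
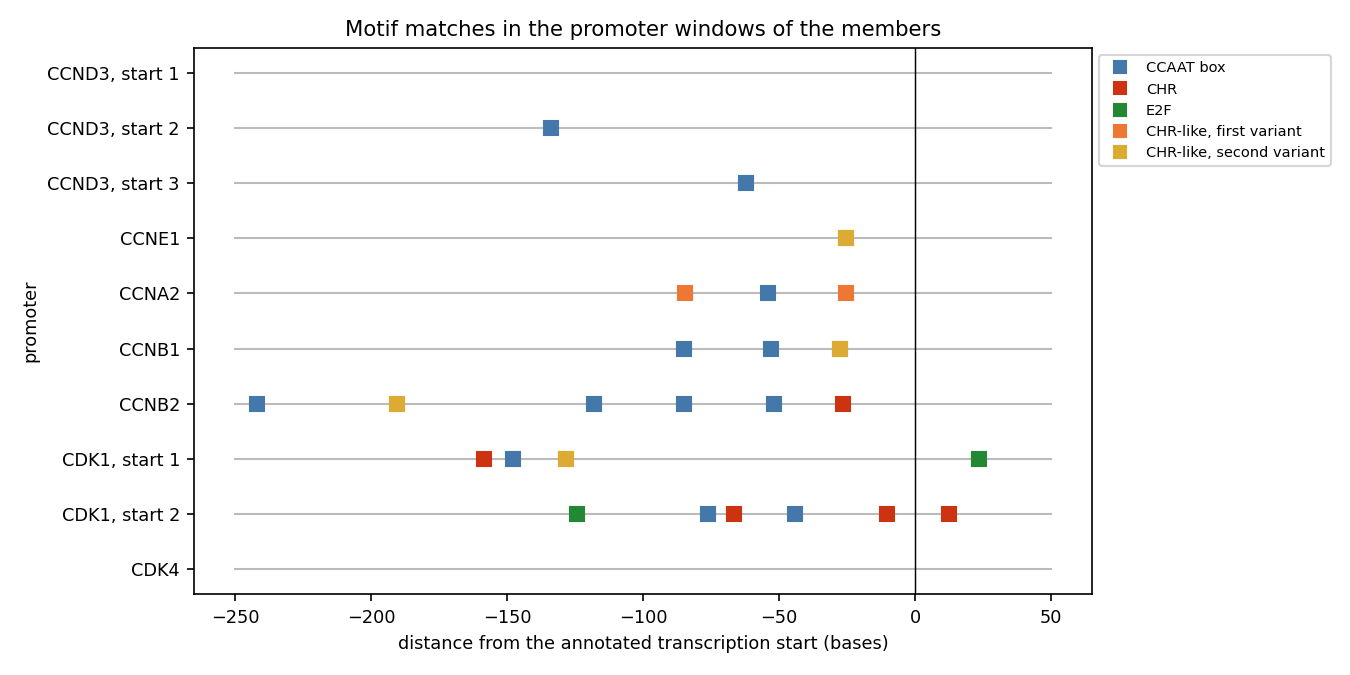
Motif matches in the promoter windows of the 7 members with a RefSeq entry, by distance from the annotated start in bases, from 250 before to 50 after it. Each row is 1 annotated start and each square 1 match on either strand; CCNA2, CCNB1, CCNB2 and the second CDK1 start each have a CHR or CHR-like match within 30 bases before the start and a CCAAT box upstream of it.

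CCAAT boxes were found, on either strand, in the promoter windows of CCNA2, CCNB1, CCNB2, CCND3 and CDK1, which is 5 of the 7 members with an entry, and 34.6% of all 35116 promoter windows held one. The motif TTTGAA or TTCGAA was found in CCNB2 and CDK1, against 16.4% of all windows. CCNA2 held CTTGAA, found in 11.2% of all windows, and CCNB1, CCNB2, CCNE1 and CDK1 held TTTAAA, found in 12.2%; both variants were added after the sequences had been seen. The E2F motif TTTNNCGC, with each N a C or G, was found in CDK1 alone among the 7, against 3.31% of all windows. TATAAA was found in none of the 7 and in 11.5% of all windows. Spacing was taken only for the CHR or variant match nearest before the start and the closest CCAAT box upstream of it. Between their first bases there were 25 bases in CCNB1, 25 in CCNB2, 28 in CCNA2 and 33 in CDK1 at its downstream start. Other matches were arranged otherwise. At that CDK1 start a CCAAT box at -78 had TTTGAA at -69, and at the upstream start TTTGAA at -161 came before CCAAT at -150. CCNA2 also had CTTGAA at -87, upstream of its CCAAT box at -56. CCND1, CCNE2 and CDK2 had no entry. CCND3 had 3 windows and CDK1 had 2, and a member was counted where any of its windows held the motif. The shares of all windows are counted by window, so the member counts and these shares are not counted alike.

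The members were lower than the control more often than higher, and the count differed widely between knockdowns. Of 120 member and knockdown pairs, 47 were 2-fold lower and 0 were 2-fold higher. Over all genes kept, 2.04% of such pairs were 2-fold lower, and the share higher is given for each knockdown below. In siFOXA1, 7 of the 10 members were 2-fold lower, against 4.22% of the 15786 genes kept, and none higher, against 3.52%. In siEZH2, 6 were lower and none higher, against 3.09% and 0.893% of all genes, and the same 2 counts held in siFOXM1 (3.6% lower and 2.59% higher) and in siCTCF (2.84% and 1.27%). Next came 4 libraries with 5 members lower and none higher. There the share of all genes was 1.97% lower and 0.494% higher in siSMARCA4, 1.88% and 0.906% in siRAD21, 1.56% and 0.386% in the library labelled siMALAT1, and 1.33% and 0.323% in siPCAT1. In siKDM1A 1 member, CCNE2, was lower and none higher (1.55% and 0.754% of all genes), and in siBRCA1 1 member, CCNB1, was lower and none higher (0.944% and 0.45%). No member was 2-fold from the control in siBRCA2, where 0.76% of all genes were lower and 0.767% higher, or in siEED, where 0.741% were lower and 0.817% higher.

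The median difference over the 10 members was -1.83 in siEZH2, -1.70 in siFOXA1, -1.61 in siCTCF and -1.51 in siFOXM1. It lay between -0.87 and -0.69 in siRAD21, siSMARCA4, the library labelled siMALAT1, siPCAT1 and siKDM1A, and was -0.40 in siBRCA1, -0.10 in siBRCA2 and 0.01 in siEED. The median over all genes kept lay between 0.00576 and 0.0536 in the 12 knockdowns. The knockdowns of the 2 PRC2 subunits thus stood apart for these genes. The level of EED was 4.13 FPKM in its own knockdown, and 8.94 in the control. The level of EZH2 was 2.20 FPKM in its own knockdown, and 16.4 in the control.

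Because the control is 1 library, the members were also set against the median of the other 11 knockdowns. Then 6 members were 2-fold lower in siFOXA1 (2.49% of all genes), 5 in siEZH2 (1.35%), 4 in siFOXM1 (1.77%) and 2 in siCTCF (0.83%). On the other side 5 members were 2-fold higher in siEED (1.01% of all genes), 3 in siBRCA2 (1.03%) and 2 in siBRCA1 (0.222%). By the median differences from the control given above, siBRCA1, siBRCA2 and siEED were nearest to it for these genes, and siFOXA1, siEZH2, siFOXM1 and siCTCF lay lowest. For any 1 gene both differences rise with the same knockdown level, so the order of the knockdowns is fixed to be alike under both references. That the same libraries lay lowest under both therefore says nothing of the control library.

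**Figure D2:**
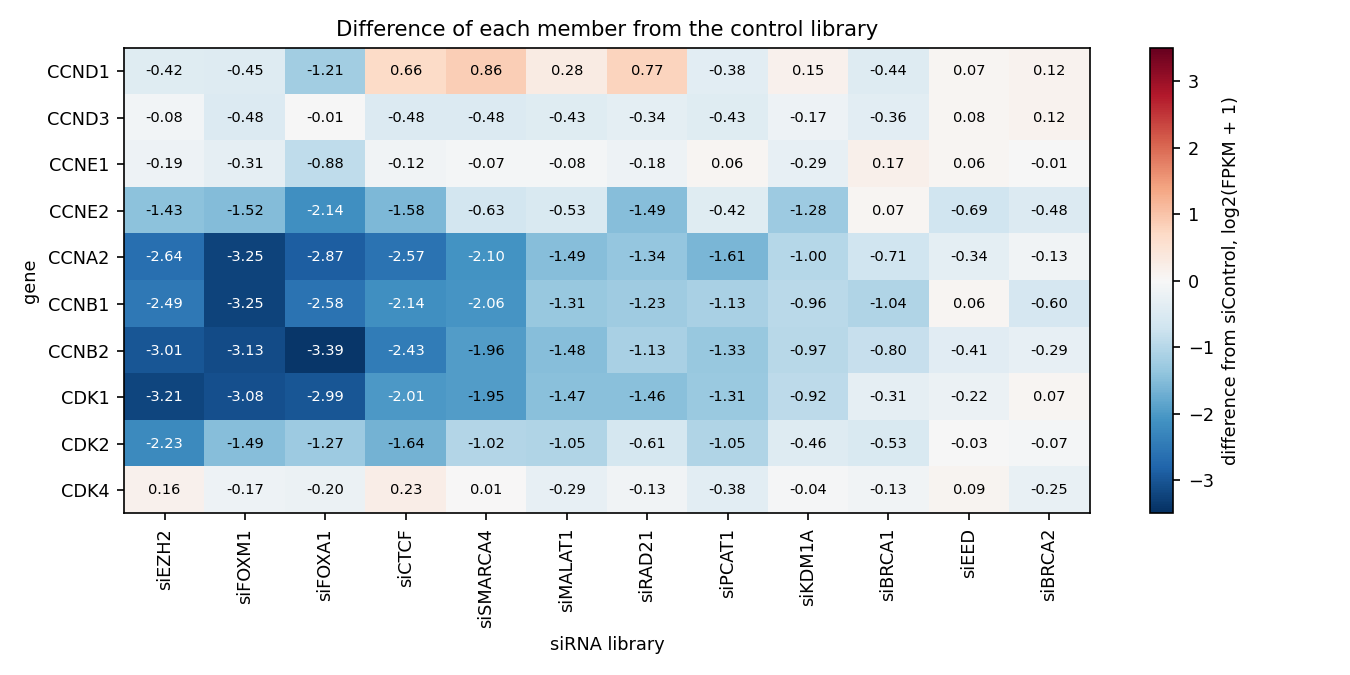
Difference of each member (rows) from the control library in each knockdown (columns, ordered by the CDK1 difference), in log2(FPKM + 1) units; blue is lower and red is higher than the control. CCNA2, CCNB1, CCNB2 and CDK1 are the darkest rows, down to -3.39 for CCNB2 in siFOXA1, while CCND3 and CDK4 stay within 0.48 of the control.

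On the log2(FPKM + 1) scale, CCND3, CDK4 and CCNE1 were 2-fold from the control in no knockdown, and CCND1 in 1. In siFOXA1 the FPKM of CCNE1 was 0.42 times that of the control, and CCNE1 missed the line there through the added 1. CCND1, the main D cyclin of many epithelial cancers, had a level of 20.0 in siFOXA1, 34.6 in siFOXM1, 34.8 in siBRCA1, 35.2 in siEZH2, 36.4 in siPCAT1, 50.1 in siEED, 51.9 in siBRCA2, 52.8 in siKDM1A, 57.9 in the library labelled siMALAT1, 75.7 in siCTCF, 82.1 in siRAD21 and 87.1 in siSMARCA4, against 47.6 FPKM in the control. It was below the control in 5 knockdowns and above it in 7. It was 2-fold lower in siFOXA1 alone (-1.21) and stood highest in siSMARCA4 (0.86), siRAD21 (0.77) and siCTCF (0.66), which did not reach 2-fold. These differences were about as large against the median of the other 11 knockdowns, at -1.33 in siFOXA1, 0.79 in siSMARCA4, 0.70 in siRAD21 and 0.59 in siCTCF.

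CCND3, a D cyclin prominent in blood cells and muscle, had a level of 16.3 in siSMARCA4, 16.3 in siCTCF, 16.3 in siFOXM1, 16.8 in the library labelled siMALAT1, 16.8 in siPCAT1, 17.8 in siBRCA1, 17.9 in siRAD21, 20.4 in siKDM1A, 21.7 in siEZH2, 22.9 in siFOXA1, 24.4 in siEED and 25.1 in siBRCA2, against 23.0 FPKM in the control. Its knockdown levels ran in a narrow band, and the highest of all 13 libraries was 1.54 times the lowest. No knockdown was 2-fold from the control, the largest differences being -0.48 in siSMARCA4 and -0.48 in siCTCF. In siFOXA1, where CCND1 was lowest, CCND3 differed by -0.01. The ratio of CCND3 to CCND1 was 1.15 in siFOXA1 and 0.187 in siSMARCA4, against 0.484 in the control.

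CDK4, the G1 kinase that D cyclins activate, had a level of 40.7 in siPCAT1, 43.2 in the library labelled siMALAT1, 44.6 in siBRCA2, 46.2 in siFOXA1, 47.1 in siFOXM1, 48.5 in siRAD21, 48.6 in siBRCA1, 51.5 in siKDM1A, 53.3 in siSMARCA4, 56.8 in siEED, 59.4 in siEZH2 and 62.5 in siCTCF, against 53.1 FPKM in the control. The control stood inside the range of the knockdowns, with 8 below it and 4 above. The highest level was 1.54 times the lowest, and the differences ran from -0.38 in siPCAT1 to 0.23 in siCTCF. CDK4 was the highest of the 10 members in siEZH2, siFOXA1, siFOXM1 and siPCAT1, against the 3rd highest in the control.

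The E cyclins differed in how far they fell, although their levels followed each other over the 13 libraries (r of 0.83). CCNE2 had a level of 3.74 in siFOXA1, 6.01 in siCTCF, 6.26 in siFOXM1, 6.43 in siRAD21, 6.76 in siEZH2, 7.60 in siKDM1A, 11.96 in siEED, 12.5 in siSMARCA4, 13.4 in the library labelled siMALAT1, 14.0 in siBRCA2, 14.7 in siPCAT1 and 20.9 in siBRCA1, against 19.9 FPKM in the control. It was 2-fold lower in 6 knockdowns, with differences of -2.14 in siFOXA1, -1.58 in siCTCF, -1.52 in siFOXM1, -1.49 in siRAD21, -1.43 in siEZH2 and -1.28 in siKDM1A. It was level with the control in siBRCA1 (0.07).

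CCNE1, its paralogue with the same kinase partner, had the lowest level of the members in the control and a level of 1.57 in siFOXA1, 2.82 in siFOXM1, 2.85 in siKDM1A, 3.15 in siEZH2, 3.17 in siRAD21, 3.36 in siCTCF, 3.46 in the library labelled siMALAT1, 3.49 in siSMARCA4, 3.68 in siBRCA2, 3.91 in siEED, 3.93 in siPCAT1 and 4.33 in siBRCA1, against 3.72 FPKM in the control. No knockdown was 2-fold from the control on the log2(FPKM + 1) scale, although siFOXA1 came near (-0.88), and with a pseudocount of 0.1 it was -1.195 there. The ratio of CCNE2 to CCNE1 was 1.79 in siCTCF, 2.03 in siRAD21, 2.15 in siEZH2, 2.22 in siFOXM1, 2.38 in siFOXA1, 2.67 in siKDM1A, 3.06 in siEED, 3.57 in siSMARCA4, 3.73 in siPCAT1, 3.80 in siBRCA2, 3.88 in the library labelled siMALAT1 and 4.83 in siBRCA1, against 5.34 in the control. The control ratio was thus above that of every knockdown. Next to CCNA2, in siSMARCA4 CCNE2 differed by -0.63 while CCNA2 differed by -2.10, and in siRAD21 CCNE2 differed by -1.49 and CCNA2 by -1.34.

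CCNA2, CCNB1, CCNB2 and CDK1 were the members with the widest range. CCNA2, the cyclin of S phase and G2, had a level of 1.67 in siFOXM1, 2.47 in siFOXA1, 3.08 in siEZH2, 3.28 in siCTCF, 4.95 in siSMARCA4, 7.32 in siPCAT1, 8.03 in the library labelled siMALAT1, 9.03 in siRAD21, 11.7 in siKDM1A, 14.6 in siBRCA1, 19.1 in siEED and 22.2 in siBRCA2, against 24.4 FPKM in the control. All 12 knockdowns were below the control and 8 were 2-fold lower, down to -3.25 in siFOXM1. In siKDM1A its difference was -0.999, just short of the 2-fold line.

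CCNB1, the main mitotic cyclin, had a level of 6.79 in siFOXM1, 11.4 in siFOXA1, 12.2 in siEZH2, 15.9 in siCTCF, 16.8 in siSMARCA4, 28.9 in the library labelled siMALAT1, 30.7 in siRAD21, 33.0 in siPCAT1, 35.1 in siBRCA1, 37.3 in siKDM1A, 48.1 in siBRCA2 and 76.2 in siEED, against 73.3 FPKM in the control. It was below the control in 11 knockdowns and 2-fold lower in 9, and siEED was the exception (0.06). Its lowest value was in siFOXM1 (-3.25), followed by siFOXA1 (-2.58) and siEZH2 (-2.49). FOXM1 is a transcription factor known to act on CCNB1, and FOXM1 itself was at 0.474 FPKM in siFOXM1, 1.75 in siFOXA1 and 2.47 in siEZH2, against 20.1 in the control. FOXM1 mRNA was 2-fold lower in 9 of the 12 knockdowns, so it moved with the members, and its part in their levels was not tested.

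CCNB2, the second B cyclin, had a level of 27.2 in siBRCA2, 25.0 in siEED, 18.8 in siBRCA1, 16.7 in siKDM1A, 14.7 in siRAD21, 12.7 in siPCAT1, 11.4 in the library labelled siMALAT1, 7.88 in siSMARCA4, 5.39 in siCTCF, 3.29 in siEZH2, 2.95 in siFOXM1 and 2.28 in siFOXA1, against 33.5 FPKM in the control. All 12 knockdowns were below the control and 8 were 2-fold lower. The order at the low end differed from that of CCNB1, with siFOXA1 lowest (-3.39) and then siFOXM1 (-3.13) and siEZH2 (-3.01). The ratio of CCNB2 to CCNB1 was 0.200 in siFOXA1, 0.270 in siEZH2, 0.328 in siEED, 0.339 in siCTCF and 0.435 in siFOXM1, against 0.457 in the control. In the other knockdowns it ran from 0.385 in siPCAT1 to 0.566 in siBRCA2.

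CDK1, the mitotic kinase, had the highest level of the 10 members in the control. Its level was 8.52 in siEZH2, 9.44 in siFOXM1, 10.1 in siFOXA1, 20.8 in siCTCF, 21.8 in siSMARCA4, 30.8 in the library labelled siMALAT1, 31.1 in siRAD21, 34.7 in siPCAT1, 45.5 in siKDM1A, 70.4 in siBRCA1, 74.9 in siEED and 91.5 in siBRCA2, against 87.3 FPKM in the control. It was 2-fold lower in 8 knockdowns, with differences of -3.21 in siEZH2, -3.08 in siFOXM1 and -2.99 in siFOXA1, and stood above the control in siBRCA2 alone (0.07). Among the 10 members CDK1 ranked 5th in siEZH2 and siFOXA1 and 4th in siFOXM1, and 1st in siBRCA1 and siBRCA2, against 1st in the control.

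CDK2, the partner of cyclins E and A, had a level of 4.59 in siEZH2, 7.39 in siCTCF, 8.33 in siFOXM1, 9.89 in siFOXA1, 11.6 in siPCAT1, 11.7 in the library labelled siMALAT1, 11.95 in siSMARCA4, 16.2 in siRAD21, 17.2 in siBRCA1, 18.1 in siKDM1A, 24.0 in siBRCA2 and 24.7 in siEED, against 25.2 FPKM in the control. All 12 knockdowns were below the control, and 7 were 2-fold lower, with siEZH2 (-2.23) and siCTCF (-1.64) lowest. In siFOXA1 and siFOXM1 CDK2 differed by -1.27 and -1.49, where CDK1 differed by -2.99 and -3.08. The ratio of CDK1 to CDK2 was 1.02 in siFOXA1, 1.13 in siFOXM1, 1.83 in siSMARCA4, 1.86 in siEZH2 and 1.92 in siRAD21, and 4.10 in siBRCA1, against 3.46 in the control. CDK4 to CDK2 was 12.9 in siEZH2 and 8.46 in siCTCF, against 2.10 in the control. CDK2 had 3 values that lay just past the 2-fold line, at -1.02 in siSMARCA4, -1.05 in siPCAT1 and -1.05 in the library labelled siMALAT1.

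**Figure D3:**
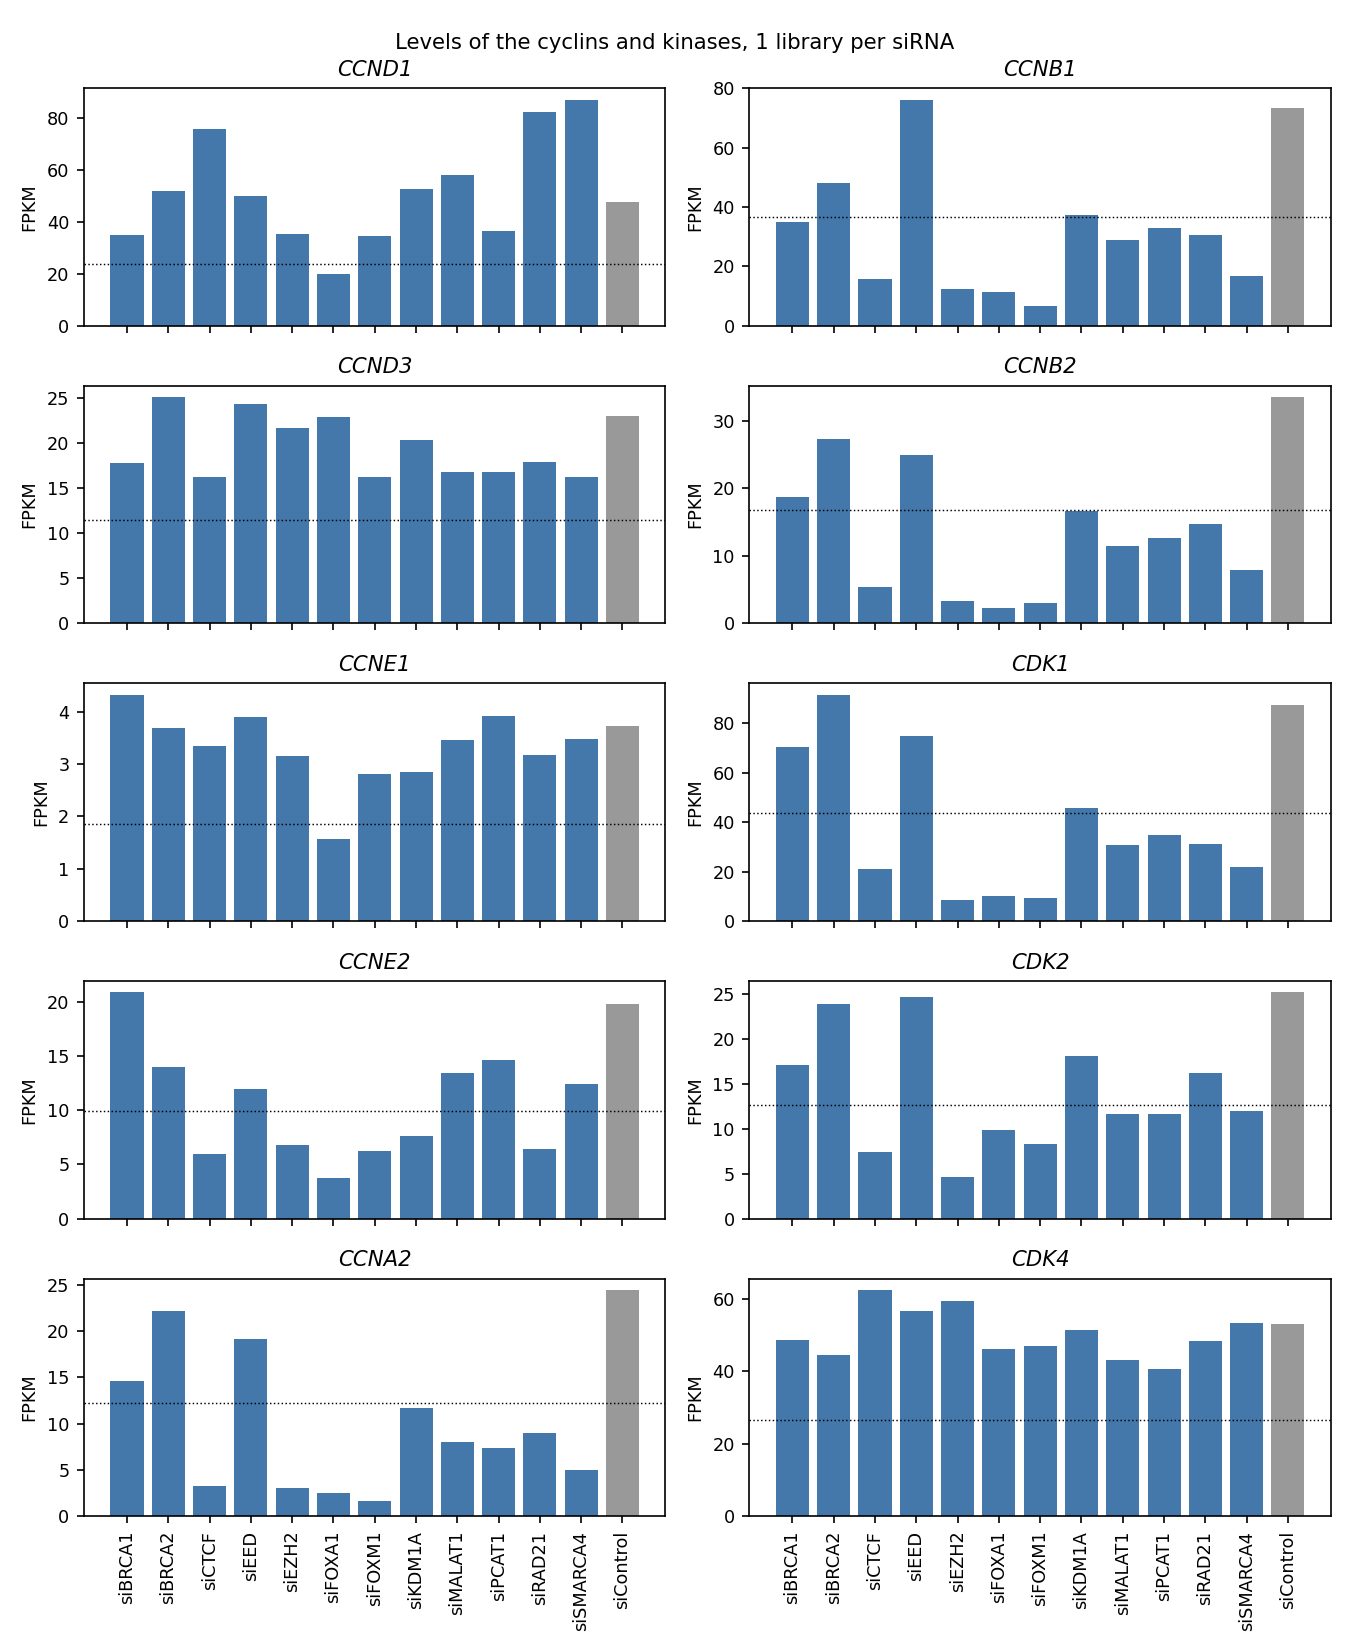
Level of each member in FPKM (bars, 1 library each, from 0), with the 12 knockdowns in blue and the control in grey at the right. The dotted line marks a level of 1/2 of the control, while genes were counted as 2-fold lower on the log2(FPKM + 1) scale; CCNA2, CCNB1, CCNB2 and CDK1 lie under it in at least 8 knockdowns, and CDK4 and CCND3 in none.

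**Figure D4:**
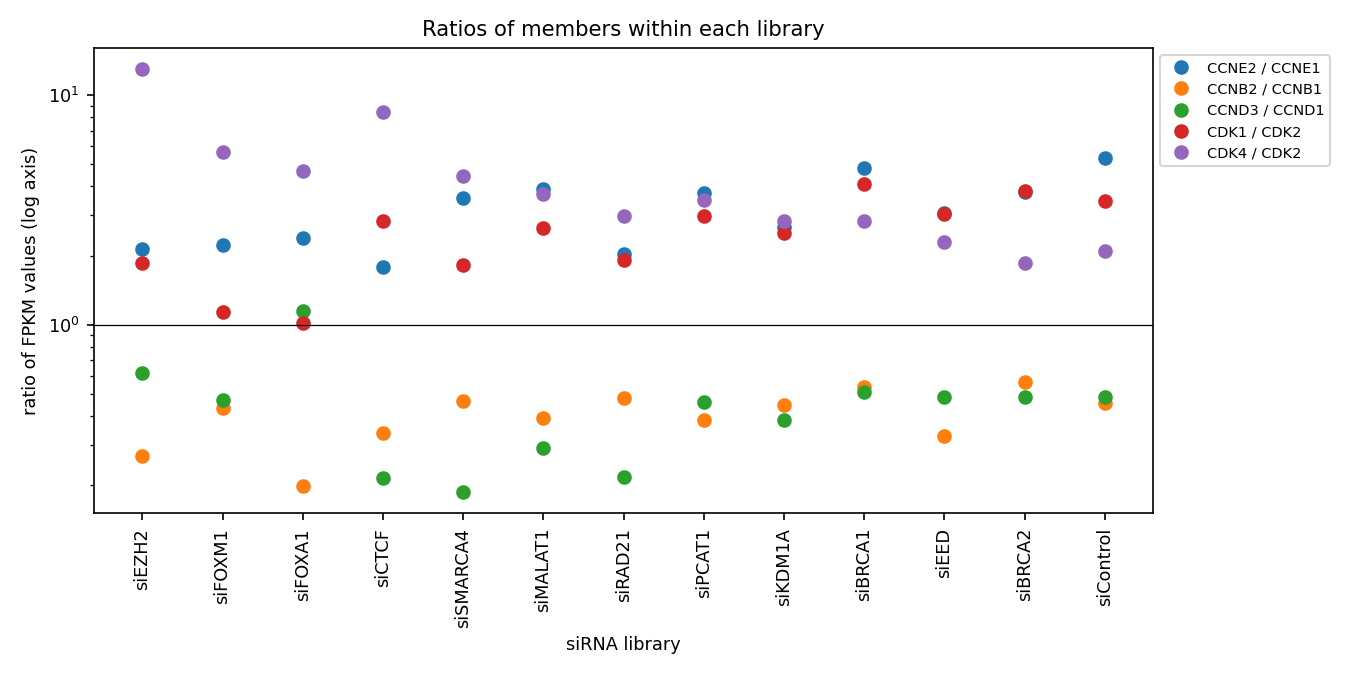
Ratio of the FPKM levels of 2 members within each library (log axis, 1 point per library, knockdowns ordered by the CDK1 difference and the control at the right). CCNE2 to CCNE1 is highest in the control at 5.34, CDK1 to CDK2 is lowest in siFOXA1 at 1.02, and CDK4 to CDK2 is highest in siEZH2 at 12.9.

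Across all 13 libraries CCNA2, CCNB1, CCNB2, CDK1 and CDK2 followed each other closely. Pearson's r of log2(FPKM + 1) levels over the 13 libraries was 0.98 for CCNA2 with CCNB2, 0.98 for CCNB2 with CDK1, 0.97 for CCNA2 with CCNB1 and 0.91 for CDK1 with CDK2, with Spearman's rho of 0.99, 0.97, 0.96 and 0.92. Without siFOXA1 and siFOXM1 the same pairs gave r of 0.98, 0.97, 0.95 and 0.95 over 11 libraries. CCNE2 followed this group less closely, with r of 0.77 with CDK1 and 0.83 with CCNE1. CDK4 had r of -0.12 with CDK1 and 0.31 with CCND1, and CCND1 had r of 0.29 with CDK1, which was -0.16 without siFOXA1 and siFOXM1. These values are descriptions over libraries that share a cell line, a protocol and a common distribution of values.

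The 3 genes most like each member, by r over the 13 libraries, were searched among 12008 genes. For CCNB2 they were DLGAP5, TOP2A and NUSAP1 (r of 0.998, 0.998 and 0.995), which act in spindle assembly or chromosome structure. For CCNA2 they were CDCA5, PBK and BIRC5 (0.993, 0.993 and 0.992), and for CDK1 they were KIAA1524, CDC25C, the phosphatase that activates CDK1, and DEPDC1B (0.990, 0.986 and 0.986). CCNB1 was most like NUP85, TRAIP and SUV39H1 (0.988, 0.983 and 0.983), and CDK2 most like NUP50, GPSM2 and WDR62 (0.971, 0.955 and 0.943). CCNE2 was most like CHAF1B, BBS7 and XRCC2 (0.893, 0.889 and 0.874). For the rest the nearest gene was USP7 for CCNE1 (0.941, and 0.799 without siFOXA1 and siFOXM1), SOWAHB for CCND1 (0.878), CAD, an enzyme of pyrimidine synthesis, for CDK4 (0.875) and HAUS4 for CCND3 (0.801). These names are given as a description, and nothing is drawn from them about shared function or control.

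The rest of the CDK machinery was read from lists of genes by role, counted over genes kept and the 12 knockdowns. Over all 15786 genes, 1.52% were 2-fold lower in 6 or more knockdowns and 0.361% were 2-fold higher in 6 or more. Of 9 phosphatases, inhibitory kinases and subunits of CDKs, 4 were 2-fold lower in 6 or more and none higher. PKMYT1, the membrane kinase that holds CDK1 inactive, was lower in 10, with a lowest level of 0.790 FPKM in siFOXM1 and a median of 4.22 over the knockdowns, against 14.8 in the control. CDC25C was lower in 7, with 0.414 FPKM in siFOXA1 and a median of 3.10, against 7.89 in the control. The small CDK-binding subunits CKS1B and CKS2 were each lower in 7, with medians of 28.8 and 55.0 FPKM, against 69.7 and 134 in the control. WEE1, the nuclear counterpart of PKMYT1, was 2-fold lower in none, at 7.15 to 16.6 FPKM in the knockdowns and 13.3 in the control.

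Over all genes kept, 2.04% of pairs of a gene and a knockdown were 2-fold lower. Of 13 other cyclins, none was 2-fold lower in 6 or more knockdowns, and 3 of 156 pairs were 2-fold lower, a share of 1.92%, near that of all genes. Of 16 other cyclin-dependent kinases, none was lower in 6 or more, and 1 of 192 pairs was lower, that of CDK14 in siFOXA1, a share of 0.521%. List medians ran from -0.13 to 0.14 for the other cyclins and from -0.20 to 0.20 for the other kinases.

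Among the factors that regulate transcription of the members, MYBL2 was 2-fold lower in 10 knockdowns and FOXM1 in 9, of 7 genes of the MuvB group. MYBL2, which joins the MuvB core to activate G2 and M genes, had a lowest level of 1.11 FPKM in siFOXA1 and a median of 6.07, against 25.9 in the control. Of the other 5, LIN9 was 2-fold lower in 5 knockdowns and LIN37, LIN52, LIN54 and RBBP4 in none. Of 13 pocket proteins, E2F and DP factors, E2F8 was lower in 10, E2F1 in 9 and E2F7 in 6. E2F1 had a median of 3.68 FPKM, against 10.1 in the control. E2F2 and RBL1 were each 2-fold lower in 3 knockdowns and RB1 in 1, and E2F3, E2F4, E2F5, E2F6, RBL2, TFDP1 and TFDP2 in none.

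Among 22 genes of cyclin ubiquitin ligases, 4 were 2-fold lower in 6 or more knockdowns, and none was higher. These were CDC20, the mitotic activator of the anaphase-promoting complex, in 10, its ubiquitin-conjugating enzymes UBE2C in 9 and UBE2S in 6, and its inhibitor FBXO5 in 7. CDC20 had a median of 21.5 FPKM, against 64.5 in the control. The list median lay between -0.23 and -0.01, and 16 of the 22 were 2-fold lower in none. All 4 proliferation markers examined, MKI67, PCNA, TOP2A and BIRC5, were 2-fold lower in 7 or more knockdowns. They moved with the A and B cyclins and CDK1, and their part in those levels was not tested.

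Of 7 CDK inhibitors kept, CDKN1A, which encodes p21, was 2-fold higher in 10 knockdowns and CDKN3, a phosphatase of CDKs, was 2-fold lower in 9. CDKN1A was at 440 FPKM in siCTCF and 130.5 in siSMARCA4, and at 47.5 in siEZH2, 82.6 in siFOXA1 and 77.6 in siFOXM1, against 22.5 in the control. In siCTCF, where CDKN1A was highest, CDK1 was at 20.8 FPKM, and CDK1 was lowest in siEZH2 at 8.52. In siBRCA2 CDKN1A was at 79.7 FPKM with CDK1 at 91.5, and in siPCAT1 CDKN1A was at 25.0 with CDK1 at 34.7, against a CDK1 level of 87.3 in the control. These libraries were picked with their values in view, and whether CDKN1A bears on the CDK1 level was not tested.

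**Figure D5:**
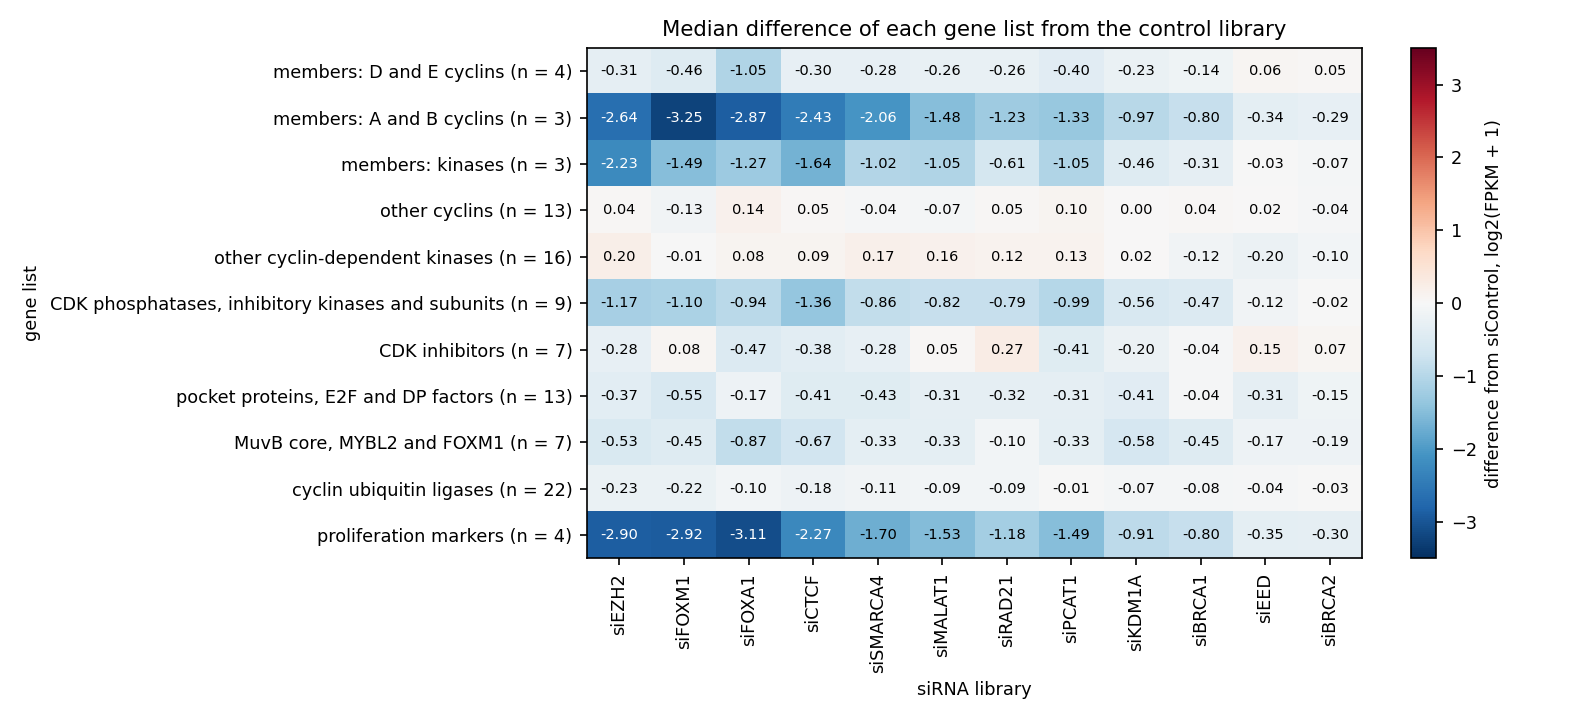
Median difference from the control library of each gene list (rows, with the number of genes kept) in each knockdown (columns, ordered by the CDK1 difference), in log2(FPKM + 1) units. The A and B cyclins and the proliferation markers are the darkest rows, and the other cyclins and other cyclin-dependent kinases stay between -0.20 and 0.20.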

How the data were processed

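RNA sequencing of 13 libraries was used, 1 for each of 12 siRNA pools and 1 for a control siRNA. The submitters' processing notes name TopHat, Cufflinks and the hg19 build, without versions or roles. The authors deposited log2 values of FPKM for 22613 entries per library. Their lowest value, -3.32, is that of 0.1 on this scale, and the deposited values were taken to be log2(FPKM + 0.1). The sorted values of the libraries differed by at most 0.0562, so they had been brought to a common distribution, a step that no label records. Differences are therefore relative within a library. No counts were used, so depth is unknown and no counting intervals are given. The strand setting is not given in the sources used, and reads from overlapping genes cannot be told apart.

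Values were turned back to FPKM, set to 0 below 1e-09, and expressed as log2(FPKM + 1), which understates the differences of low genes. Genes with a mean of at least 0.5 FPKM were kept, and 749 small RNA entries were left out, leaving 15786. With 1 library per group nothing was tested between groups; genes at least 2-fold (1 log2 unit) from the control were counted. The calls were run on simulated data as a check of the code only. The noise there was assumed and the planted changes were larger than the 2-fold line. With 1 library per siRNA the true spread is unknown, so this check says nothing of how reliable the calls are. Named genes are the 10 members, up to 4 genes per list that were 2-fold from the control in 6 or more knockdowns, the 3 genes most like each member (mean of at least 1 FPKM), and the siRNA targets; any other gene named was picked with its values in view. The members and lists were chosen with earlier results of these data known. Promoter sequences were matched by symbol in a RefSeq table on GRCh38.p14, for 7 of 10 members, and used for motifs only, with no coordinates carried between builds. Alternatives were a pseudocount of 0.1, no filter, quantile normalization, centring on the median, the median of the other 11 knockdowns as reference, leaving out libraries, and a shorter promoter window. Python 3.11.15, NumPy 2.4.6, pandas 2.3.3 and Matplotlib 3.10.9 were used.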

Additional observations from a re-analysis of the deposited data

How the results depend on the processing

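No paired analysis was possible because each group had 1 library. The number of members 2-fold lower was unchanged in all 12 knockdowns with no filter on low values, with quantile normalization and with small RNA entries kept, the last chosen after seeing the data. These settings could hardly move it, since all 10 members passed the filter, small RNA entries do not enter a member's difference, and the deposited values already shared a distribution, so they say nothing of stability. In siKDM1A, where the main count was 1, it was 3 with a pseudocount of 0.1 and 2 with differences centred on their median, through CCNA2 in both and CCNB2 in the first. In siFOXA1 it was 8 with a pseudocount of 0.1, against 7, through CCNE1. With a pseudocount of 0.1 the pairs 2-fold lower were 5 for other cyclins and 4 for other cyclin-dependent kinases, against 3 and 1. They were 42 for pocket proteins, E2F and DP factors (32 in the main setting) and 39 for CDK phosphatases, inhibitory kinases and subunits (36). For proliferation markers they were 34 (32) and for the MuvB group 25 (24), and the CDK inhibitors and cyclin ubiquitin ligases were unchanged. The choice of the control as reference mattered most. Against the median of the other knockdowns, the members lower were 2 in siCTCF, against 6, and 0 in siBRCA1, siKDM1A, the library labelled siMALAT1, siPCAT1, siRAD21 and siSMARCA4. The member medians then were -0.59 in siCTCF, -0.94 in siEZH2 and -0.70 in siFOXM1, and they turned above 0 in siBRCA1 (0.41), siBRCA2 (0.76), siKDM1A (0.27), siPCAT1 (0.055) and siRAD21 (0.050). Of 101 member differences below 0 against the control, 42 turned above 0, up to 1.48 for CCNA2 in siBRCA2. Of these 42, 10 had been 2-fold lower: CCNB1 in siBRCA1 (0.27), siPCAT1 (0.19) and siRAD21 (0.084), CCNA2 in the library labelled siMALAT1 (0.12) and siRAD21 (0.27), CCNB2 in siPCAT1 (0.15) and siRAD21 (0.34), CDK1 in siPCAT1 (0.17) and siRAD21 (0.015), and CDK2 in siSMARCA4 (0.033). The pairs 2-fold lower were then 1 of 156 for other cyclins (3 against the control) and 2 of 192 for other cyclin-dependent kinases (1). They were 7 of 108 for CDK phosphatases, inhibitory kinases and subunits (36), 5 of 84 for CDK inhibitors (11) and 1 of 156 for pocket proteins, E2F and DP factors (32). For the MuvB group they were 7 of 84 (24), for cyclin ubiquitin ligases 9 of 264 (34) and for proliferation markers 12 of 48 (32). The share of all pairs of a gene and a knockdown under that reference was not computed, so these counts are not set against it. How much of the difference between the references comes from the 1 control library was not tested. Leaving out the library labelled siMALAT1, chosen after seeing the data, lowered the count of knockdowns by 1 for CCNA2, CCNB1, CCNB2, CDK1 and CDK2 and left that of the other 5 members as it was.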

Other observations

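Levels of some other cyclins, a kinase and a CDK inhibitor follow, chosen after their values were seen. CCNO and CCNF reached 2-fold lower in 2 and 1 knockdowns, CDK14 in 1 and CDKN2C in 2, and CCNG1 and CCNG2 in none. CCNO, an atypical cyclin needed for multiciliated cells, was at 16.1 FPKM in siBRCA1 and 21.9 in siFOXA1, and between 26.2 and 60.9 in the other knockdowns, against 53.2 in the control. CCNG1, a known p53 target, was at 152.9 FPKM in siCTCF and 52.3 in siFOXM1, against 78.5 in the control. CCNG2 was at 17.9 FPKM in siBRCA1, 18.3 in siKDM1A and 46.7 in siFOXM1, against 35.6 in the control. CDK14, a kinase that pairs with membrane-bound cyclin Y, was at 9.34 FPKM in siFOXA1 and between 19.6 and 30.2 in the other knockdowns, against 25.3 in the control. CDKN2C, an inhibitor of CDK4 and CDK6, was at 5.92 FPKM in siCTCF and 5.90 in siEZH2 and at 18.5 in siRAD21, against 16.6 in the control. CCNF, a cyclin that serves as a ubiquitin ligase subunit, was at 2.63 FPKM in siFOXA1 and between 3.92 and 7.56 in the other knockdowns, against 7.996 in the control.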
